A study of Mus musculus with 5 samples.

Results

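Lung expression of 9 genes for small calcium-binding S100 proteins and for galectins was examined in bleomycin-treated 129svJ mice: S100a4, S100a6, S100a8, S100a9, S100a10, S100a11, S100a13, Lgals1 and Lgals3. Members were taken by gene symbol in the platform's annotation, and a value on 4 or more of the 5 arrays was required. This left 7 of the 9, 6 S100 genes and Lgals1, among 10081 genes and unnamed features, and each of the 7 was read by 1 feature on all 5 arrays. S100a10 and Lgals3 were not analysed here. Each 2-colour array compared amplified lung RNA of 1 mouse of the inbred strain 129svJ given bleomycin, a DNA-cutting antitumour drug used to scar the lung, in channel 1, with amplified lung RNA pooled from control mice of the same strain in channel 2. The group therefore holds 5 mice and its comparator is 1 pool. The sources used here do not give the dose, route, time, age, sex, size of the pool or dyes.

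Arrays 1 to 5 held values for 11350 to 12083 of 17280 features. Values are log2 ratios between mouse and pool, centred on each array's median, and hold no level, so the tissue could not be checked by the abundance of lung markers. Which of mouse and pool a negative ratio favours is not settled by the labels, so values are given by their side of 0. The base of the logarithm was taken as 2, and folds would be larger for a natural logarithm. In whole lung, fewer cells of a type and less RNA per cell cannot be told apart.

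S100 proteins are small dimers built from EF-hand calcium-binding loops, and calcium opens a surface on them that grips partner proteins such as annexins and cytoskeletal myosin. Several are also released from cells, where they act as danger signals on the receptors RAGE (gene Ager) and TLR4. Galectins are lectins that bind beta-galactosides on cell surface and matrix glycoproteins and link them into lattices. In injured lung, S100a4 is known as a product of fibroblasts and macrophages, S100a8 and S100a9 as products of neutrophils and monocytes, and Lgals1 as a product of fibroblasts and vessel walls.

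The S100 members lie in 1 cluster on mouse chromosome 3, and Lgals1 lies on chromosome 15. Promoters of all 6 measured S100 members were found in RefSeq (GRCm38.p6), and Lgals1 was not matched. The 250 bases before the start are shown for the 4 S100 members that passed the test and for S100a5, the gene between S100a4 and S100a6, which did not pass. Capitals mark matches on either strand to the TATA box (TATAAA), the AP-1 motif (TGANTCA) and the CCAAT box (CCAAT). No match overlapped another.
S100a4: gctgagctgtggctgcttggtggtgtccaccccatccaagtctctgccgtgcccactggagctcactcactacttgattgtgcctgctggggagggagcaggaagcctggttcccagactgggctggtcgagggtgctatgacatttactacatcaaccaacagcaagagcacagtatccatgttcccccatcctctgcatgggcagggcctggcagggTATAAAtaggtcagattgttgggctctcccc
S100a5: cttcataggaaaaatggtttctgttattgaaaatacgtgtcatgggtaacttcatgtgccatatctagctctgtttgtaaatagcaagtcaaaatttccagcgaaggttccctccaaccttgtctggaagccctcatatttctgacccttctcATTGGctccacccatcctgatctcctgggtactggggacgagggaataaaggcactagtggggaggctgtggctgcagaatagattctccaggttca
S100a6: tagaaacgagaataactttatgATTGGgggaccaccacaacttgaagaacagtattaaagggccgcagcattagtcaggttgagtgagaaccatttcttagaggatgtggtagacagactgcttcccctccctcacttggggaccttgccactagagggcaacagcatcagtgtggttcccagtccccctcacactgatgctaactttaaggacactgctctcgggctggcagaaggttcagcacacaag
S100a8: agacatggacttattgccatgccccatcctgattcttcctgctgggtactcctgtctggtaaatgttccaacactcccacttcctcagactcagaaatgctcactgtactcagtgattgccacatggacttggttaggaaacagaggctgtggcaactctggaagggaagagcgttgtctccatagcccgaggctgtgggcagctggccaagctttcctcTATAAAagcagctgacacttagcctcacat
S100a11: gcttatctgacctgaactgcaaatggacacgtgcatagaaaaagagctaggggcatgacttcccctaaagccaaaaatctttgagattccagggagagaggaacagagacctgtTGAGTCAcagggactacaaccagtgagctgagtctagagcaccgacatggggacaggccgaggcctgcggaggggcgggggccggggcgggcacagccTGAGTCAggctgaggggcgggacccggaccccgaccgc

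All 5 lie on the plus strand, S100a4 at chr3:90603520-90603769, S100a5 at chr3:90608272-90608521, S100a6 at chr3:90612644-90612893, S100a8 at chr3:90668821-90669070 and S100a11 at chr3:93520246-93520495. A TATA box stood 31 bases before the start of S100a4 and 30 bases before that of S100a8, and 12.4% of 32851 promoters of the same length held one. The AP-1 motif occurred at 2 places before S100a11, 136 and 38 bases from the start, against a share of 6.75% of promoters with at least 1 match. A CCAAT box stood 228 bases before S100a6 and 97 bases before S100a5, against a share of 33.8%. The matches are letters only and were not tied to the ratios.

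S100a4, Lgals1 and S100a6 lay far below 0 in every mouse, S100a11 and S100a8 lay less far below 0, and S100a9 and S100a13 did not pass the test. Their means ran from −2.76 for S100a4 to 0.06 for S100a13. By limma with Benjamini-Hochberg adjustment over all 10081, 5 of the 7 had an adjusted p under 0.05, all 5 below 0 and 0 above 0, where 23.9% of all genes were called below 0 and 25.8% above 0. With a difference of at least 2-fold as well, 3 of the 7 were called below 0 and 0 above 0, against a background of 2.35% below 0 and 3.24% above 0. The median of the 7 means was −0.56, beside −0.01 over all genes, and their median size was 0.56, beside 0.21 over all genes. The members were chosen with earlier results known, so these shares describe them and test nothing.

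All arrays share the pool, and how much control mice vary among themselves does not enter the test. With the pool treated as 1 control animal that varies like the bleomycin mice, 1 of the 7 was called, Lgals1, below 0, where 2.11% of all genes were called below 0 and 2.98% above 0. No exact sign-flip test over 5 arrays can go below p = 0.0625, two-sided.

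**Figure D1:**
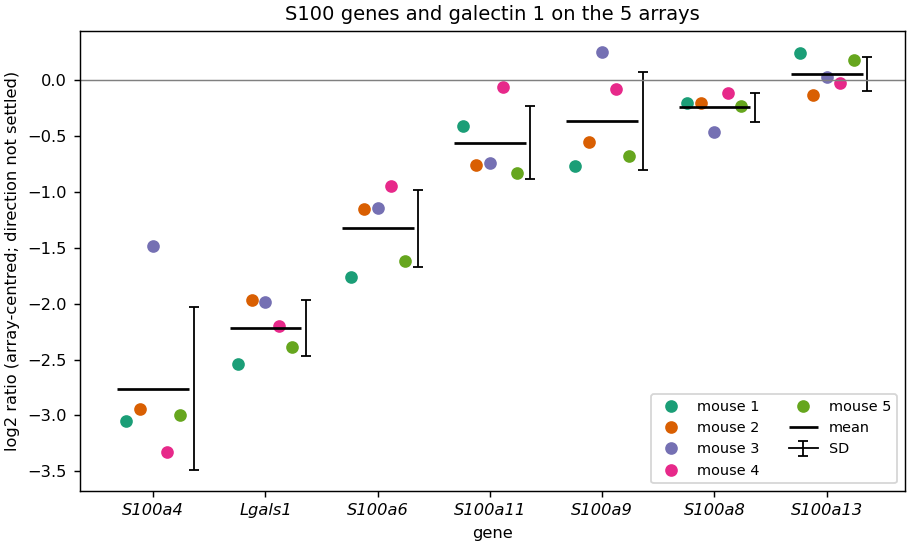
Log2 ratio of each measured member (columns, ordered by mean) in mice 1 to 5 (coloured points), with the mean (line) and SD between mice (bar). S100a4, Lgals1 and S100a6 sit wholly below −0.9, S100a4 in mouse 3 stands apart from its other mice at −1.49, and S100a9 and S100a13 have points on both sides of 0.

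S100a4, also known as fibroblast-specific protein, binds the heavy chain of nonmuscle myosin and loosens its filaments. Its log2 ratios were −3.05, −2.94, −1.49, −3.33 and −2.99 in mice 1 to 5. Mice 1, 2, 4 and 5 lay within a narrow band, and mouse 3 stood nearer to 0 than all of them. The mean was −2.76 ± 0.73 (SD, n = 5; a 6.77-fold difference; adjusted p = 0.000205 by limma), and its size exceeded that of 99.9% of all genes. Its spread between mice exceeded that of 98.96% of genes. Without mouse 3 the mean was −3.08. With the pool treated as 1 control animal the call was lost at adjusted p = 0.0519.

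Lgals1 encodes galectin 1, a homodimeric lectin known to induce death of activated T cells and to bind matrix and integrin glycans. Its log2 ratios were −2.54, −1.96, −1.99, −2.20 and −2.38. All 5 mice lay far from 0, between −2.54 and −1.96, and the spread between them exceeded that of 77.99% of genes. The mean was −2.21 ± 0.25 (SD, n = 5; a 4.64-fold difference; adjusted p = 2.16e-05 by limma), and adjusted p = 0.00977 with the pool treated as 1 control animal. Leaving out any 1 mouse moved the mean only between −2.28 and −2.13.

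S100a6, or calcyclin, binds annexins and a ubiquitin ligase adaptor, Cacybp. Its log2 ratios were −1.76, −1.15, −1.15, −0.95 and −1.61. Mice 1 and 5 were the lowest and mouse 4 the highest, and all lay below 0. The mean was −1.32 ± 0.35 (SD, n = 5; a 2.503-fold difference; adjusted p = 0.000244 by limma), and the call was lost with the pool treated as 1 control animal (adjusted p = 0.0583).

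S100a11, a partner of annexin A1 known from human keratinocytes, had log2 ratios of −0.41, −0.76, −0.74, −0.06 and −0.83. Mouse 4 was close to 0 while the other mice lay clearly below it. The mean was −0.56 ± 0.33 (SD, n = 5; a 1.47-fold difference; adjusted p = 0.00744 by limma). The call was lost when a difference above 1.2-fold was required (adjusted p = 0.0942), a rule under which 8.04% of all genes were called below 0 and 10.3% above 0, and with the pool treated as 1 control animal (adjusted p = 0.324).

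S100a8 and S100a9 form the heterodimer calprotectin, which is abundant in the cytosol of neutrophils, withholds zinc and manganese from microbes and signals through TLR4 and RAGE. S100a8 had log2 ratios of −0.205, −0.204, −0.46, −0.11 and −0.23. The mouse farthest from 0 was mouse 3, and no mouse was above 0. Its mean of −0.24 ± 0.13 (SD, n = 5; adjusted p = 0.0163 by limma) was a 1.18-fold difference, larger in size than 54.57% of all genes, and it missed the threshold at adjusted p = 1.0 when more than 1.2-fold was required and at adjusted p = 0.417 with the pool treated as 1 control animal. S100a9 had log2 ratios of −0.76, −0.56, 0.25, −0.07 and −0.68. Mice 1, 2 and 5 lay below −0.5, mouse 4 near 0 and mouse 3 above it. Its mean of −0.36 ± 0.44 (SD, n = 5) did not pass (adjusted p = 0.0872 by limma), and it passed without mouse 3, at −0.52 (adjusted p = 0.0199), but lay nearer to 0 without mouse 1, at −0.26 (adjusted p = 0.224). The partners thus differed in their extreme mouse: mouse 3 was the lowest for S100a8 and the highest for S100a9. Over the 5 arrays the ratio of S100a8 stood 0.12 ± 0.52 above that of S100a9, higher in 3 of 5 mice (exact sign-flip test, two-sided, p = 0.625).

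S100a13 assists the release of FGF1 and interleukin 1 alpha, proteins that leave cells without a signal peptide. Its log2 ratios were 0.24, −0.13, 0.03, −0.02 and 0.19, on both sides of 0. The mean was 0.06 ± 0.15 (SD, n = 5; adjusted p = 0.48 by limma).

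In the order of the means, S100a4 came lowest, followed by Lgals1, S100a6, S100a11, S100a9, S100a8 and S100a13. Between neighbours in this order, 3 of the 6 steps ran the same way in all 5 mice. The order came from these same values, which set the pairs and the direction of each step. The p-values below therefore describe the steps and are no independent support for the order. S100a6 stood above Lgals1 by 0.89 ± 0.203 (SD of the difference, n = 5 mice), S100a11 above S100a6 by 0.77 ± 0.40 and S100a13 above S100a8 by 0.302 ± 0.204, each with p = 0.0625 in an exact two-sided sign-flip test, the smallest it can give. The other steps did not exceed their spread. Lgals1 stood above S100a4 by 0.55 ± 0.64, in 4 of 5 mice (exact p = 0.125), and S100a9 above S100a11 by 0.19 ± 0.499, in 3 of 5 mice (exact p = 0.625).

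Markers of other tissues varied between the mice and are set beside the members. Their counts are to be read beside the 23.9% of all genes called below 0 and 25.8% above 0. The median log2 ratio of 13 measured skeletal muscle genes, of which 9 were called below 0 and 0 above, was −3.89, −2.84, −0.102, −0.48 and −2.11 in mice 1 to 5. That of 8 genes of stratified epithelium was −0.96, −1.28, −0.29, −0.24 and −0.79. S100a9 and S100a6 were likewise lower in mice 1, 2 and 5 than in mice 3 and 4, S100a6 only just, at −1.152 in mouse 2 and −1.145 in mouse 3. The other measured members did not split in this way. How many of all genes split so was not counted. Of the 8 epithelial genes 5 were called below 0 and 1 above (2 and 0 with the pool treated as 1 control animal). Not all of them followed the median, and Sprr1a stayed between −4.701 and −4.085 in all 5 mice. The list left out 2 measured genes of this tissue, neither of which passed by limma. Lor, the gene of loricrin, averaged −1.70 ± 2.19 (adjusted p = 0.0946 by limma) and Sprr2a1 −0.60 ± 0.68 (adjusted p = 0.066 by limma). The muscle genes were split in mouse 4, where they ran from −4.03 for Myh8, a perinatal muscle myosin, to 0.42, and in mouse 3 they ran from −1.38 to 1.23. S100a4 was nearest to 0 in mouse 3, as the muscle median was, and farthest from 0 in mouse 4, where that median was −0.48. The part of muscle or stratified epithelium in the members' ratios was not tested. Genes of neutrophils, the cells best known for S100a8 and S100a9, had medians between −0.21 and −0.02, with 2 of 9 called below 0 and 1 above. The calls of Mmp8 and Chil1 below 0 and Csf3r above 0 were all lost when more than 1.2-fold was required. Those of Mmp8 and Csf3r were also lost with a plain one-sample test per gene (adjusted p = 0.143 and adjusted p = 0.0859). The call of Mmp8 was lost too without centring, with features on at least 2 or at least 3 arrays, and without mouse 1, 2, 3 or 5. That of Csf3r was lost without mouse 4 or 5. Of 14 macrophage and monocyte genes 11 were called below 0 and 2 above, with medians from −1.12 to −0.25, and C1qb, a complement chain of macrophages, stood at −2.68 ± 0.23 (SD, n = 5). Fibroblast genes had 2 of 7 called below 0 and 3 above, with Col3a1, a fibrillar collagen, at −1.29 ± 0.15 and Dcn, the proteoglycan decorin, at 1.93 ± 0.45. With the pool treated as 1 control animal, 0 of the muscle and 0 of the neutrophil genes were called, 2 of the macrophage and monocyte genes were called below 0 and 0 above, and 1 fibroblast gene was called below 0 and 2 above. For vessel walls, 9 of 10 endothelial genes were called above 0 and 0 below, with a median of 0.84. Of 6 smooth muscle genes, 1 was called below 0 and 1 above. With the pool treated as 1 control animal, 3 endothelial genes were called above 0 and 0 below, and 0 smooth muscle genes were called. The part of these cells in the ratios of S100a4 and Lgals1 was not tested.

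**Figure D2:**
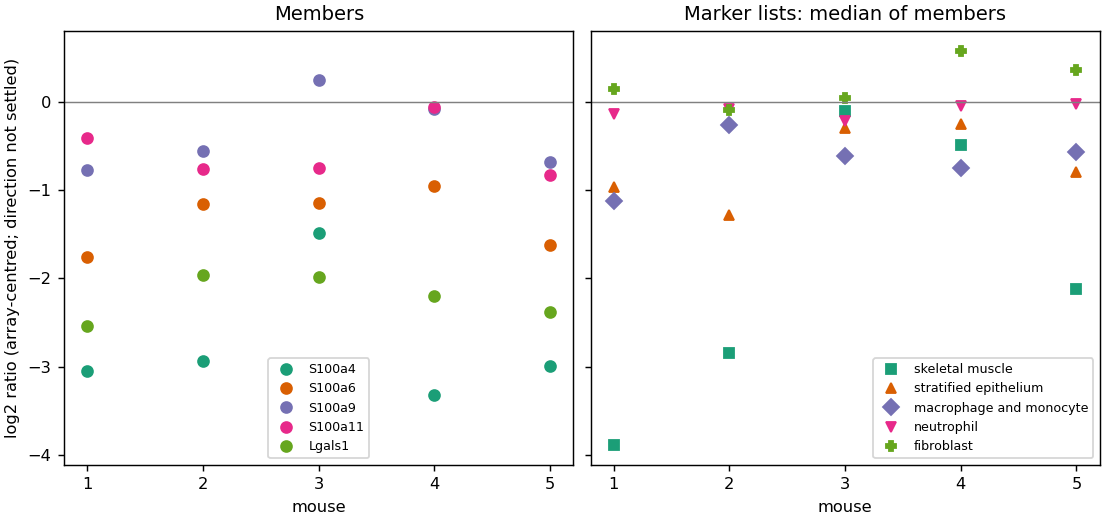
Log2 ratio of 5 members (left) and the median log2 ratio of 5 marker lists (right) by mouse. The median of the skeletal muscle markers is near 0 in mouse 3 (−0.102) and far below 0 in mice 1, 2 and 5. In mouse 4 it is −0.48, and single markers there reach −4.03. S100a9 is highest in mouse 3 (0.25), and Lgals1 lies between −2.54 and −1.96.

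Among 5 other measured S100 genes, S100a14 was called below 0, S100g was called above 0 and 3 did not pass. Of all genes, 23.9% were called below 0 and 25.8% above 0. S100a14, an S100 protein of epithelia, had log2 ratios of −1.22, −0.61, −0.90 and −1.05 in mice 1, 2, 4 and 5, with no value in mouse 3. Its mean was −0.95 ± 0.26 (SD, n = 4; a 1.925-fold difference; adjusted p = 0.00093 by limma). S100g, the calbindin of intestinal calcium uptake, averaged 0.22 ± 0.13 (SD, n = 5; adjusted p = 0.0222 by limma), and its call was lost without mouse 3, 4 or 5, at adjusted p up to 0.0726. S100a3, a protein of hair cuticle, averaged −0.23 ± 0.201, with mouse 1 at 0.12 and the other mice between −0.35 and −0.25, and it passed without mouse 1 (−0.32, adjusted p = 0.00441). S100a5, known from olfactory neurons, averaged 0.22 ± 0.22, with mouse 1 at −0.11 and the others above 0, and it too passed without mouse 1 (0.302, adjusted p = 0.0155). S100a16 averaged −0.07 ± 0.24. With the pool treated as 1 control animal, 0 of these 5 were called on either side.

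Of 3 other measured galectins, 2 were called above 0 and 0 below, the opposite side from Lgals1 (25.8% and 23.9% over all genes). Lgals12, a galectin of fat cells that sits on lipid droplets, had log2 ratios of 1.04, 0.51, 0.82, 1.104 and 0.67, all above 0, with a mean of 0.83 ± 0.25 (SD, n = 5; a 1.77-fold difference; adjusted p = 0.000571 by limma). Lgals8, which recognises damaged endosomes, averaged 0.34 ± 0.12 on 4 arrays (adjusted p = 0.00786 by limma). Lgals9, a ligand of the T cell receptor TIM-3, ran from −1.37 in mouse 1 to 0.25 in mouse 4 and averaged −0.46 ± 0.61, which did not pass (adjusted p = 0.106). It passed without mouse 4 (−0.64, adjusted p = 0.0426) and lay nearer to 0 without mouse 1 (−0.24, adjusted p = 0.232). With the pool treated as 1 control animal, 0 of the 3 were called.

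Annexins, the main intracellular partners of S100 proteins, lay mostly above 0 where they passed the test. Of 10 measured, 5 were called above 0 and 1 below, beside 25.8% and 23.9% over all genes, with a median of 0.17. With the pool treated as 1 control animal, 1 annexin was called above 0 and 0 below. Anxa1, the partner of S100a11, averaged 0.245 ± 0.11 (SD, n = 5; adjusted p = 0.0123 by limma), against the S100a11 mean of −0.56. Anxa2, the partner of S100a10, averaged −0.24 ± 0.39 on 4 arrays and did not pass (adjusted p = 0.223). It passed without mouse 1 (−0.39, adjusted p = 0.0495) and lay nearer to 0 without mouse 5 (−0.077, adjusted p = 0.639). Anxa5, which binds phosphatidylserine on dying cells, lay farthest from 0, with log2 ratios of 1.15, 1.44, 1.24, 1.55 and 1.43 and a mean of 1.36 ± 0.16 (adjusted p = 2.88e-05 by limma, and adjusted p = 0.012 with the pool treated as 1 control animal). Anxa6 was the 1 called below 0, at −0.51 ± 0.18. Anxa3, Anxa9 and Anxa11 averaged −0.26 ± 0.32, 0.0998 ± 0.097 and −0.29 ± 0.28 and did not pass, though Anxa3 passed without mouse 1 (−0.38, adjusted p = 0.0104) and Anxa11 without mouse 3 (−0.38, adjusted p = 0.0222). Anxa4, Anxa7 and Anxa10 stood at 0.36, 0.38 and 0.24, and the calls of Anxa4 and Anxa7 were lost with a plain one-sample test per gene (adjusted p = 0.0871 and adjusted p = 0.074) and also without mouse 1 or mouse 3, that of Anxa4 without mouse 5 and that of Anxa7 without mouse 4. Requiring more than 1.2-fold ended the calls of Anxa1, Anxa4, Anxa7 and Anxa10, and likewise those of S100g and Lgals8.

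Of 12 measured receptors and partners of S100 proteins, 3 were called above 0, 1 below and 8 did not pass. The shares over all genes were 25.8% above 0 and 23.9% below. When the pool was treated as 1 control animal, 0 of the 12 were called. Ager, the receptor RAGE and also a marker of type 1 alveolar cells, had log2 ratios of 1.42, 0.99, 0.86, 2.34 and 1.69. All lay above 0, with a mean of 1.46 ± 0.60 (SD, n = 5; a 2.75-fold difference; adjusted p = 0.00131 by limma). Without Ager, a comparison chosen after the values were seen, the list of type 1 alveolar markers had 5 of 9 called above 0 and 0 below (2 above and 0 below with the pool treated as 1 control animal), with a median of 1.05, and the part of type 1 cells in the ratio of Ager was not tested. Nptn, neuroplastin, a receptor of S100a8 known in human keratinocytes, averaged 0.38 ± 0.12, and Fgf1, the cargo of S100a13, averaged 0.49 ± 0.303. The call of Fgf1 was lost with a plain one-sample test per gene (adjusted p = 0.0562), and those of Fgf1, Nptn and Sugt1 were lost when more than 1.2-fold was required. Il1a, the other cargo, averaged 0.12 ± 0.28 on 4 arrays and did not pass. Sugt1, a chaperone adaptor that binds S100a6, was called below 0 at −0.22 ± 0.09. The integrin chains Itgam and Itgb2 of neutrophils and macrophages averaged −0.03 ± 0.04 and 0.09 ± 0.26. Ahnak, the giant scaffold bound by the S100a10 complex, averaged 0.05 ± 0.46, but its 2 features disagreed, one averaging −0.69 on 5 arrays and the other 1.19 on 4.

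Of 12 measured ligands and counter-receptors of galectins, 5 were called above 0, 2 below and 5 did not pass. The shares over all genes were 25.8% above 0 and 23.9% below. When the pool was treated as 1 control animal, 0 of the 12 were called. Lgals3bp, a secreted glycoprotein that binds galectins 1 and 3, had log2 ratios of −0.803, −1.37, −1.78, −0.81 and −0.42. It lay below 0 in every mouse, with a mean of −1.04 ± 0.54 (SD, n = 5; a 2.05-fold difference; adjusted p = 0.0037 by limma). Trem2, a lipid receptor of macrophages, was the other below 0, at −0.27 ± 0.09. Above 0 lay Mertk, a receptor for the removal of dead cells, at 1.2006 ± 0.34, the amino acid transporter chain Slc3a2 at 0.695 ± 0.205, the lysosomal glycoproteins Lamp2 and Lamp1 at 0.67 ± 0.25 and 0.41 ± 0.08, and the integrin-associated protein Cd47 at 0.49 ± 0.14. Cd44 averaged −0.49 ± 0.503 and Itgb1 −0.17 ± 0.20, and neither passed. Cd44 passed without mouse 4 (−0.68, adjusted p = 0.00664) but not without mouse 1 (−0.35, adjusted p = 0.133). With features on all 5 arrays both passed, Cd44 at −0.49 (adjusted p = 0.047) and Itgb1 at −0.28 (adjusted p = 0.0482). Mgat5, an enzyme that branches the glycans galectins bind, averaged 0.23 ± 0.28 and did not pass, though it passed without mouse 4 (0.31, adjusted p = 0.0459), and stood at 0.13 without mouse 1 (adjusted p = 0.227). The calls of Lamp1 and Trem2 were lost when more than 1.2-fold was required.

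**Figure D3:**
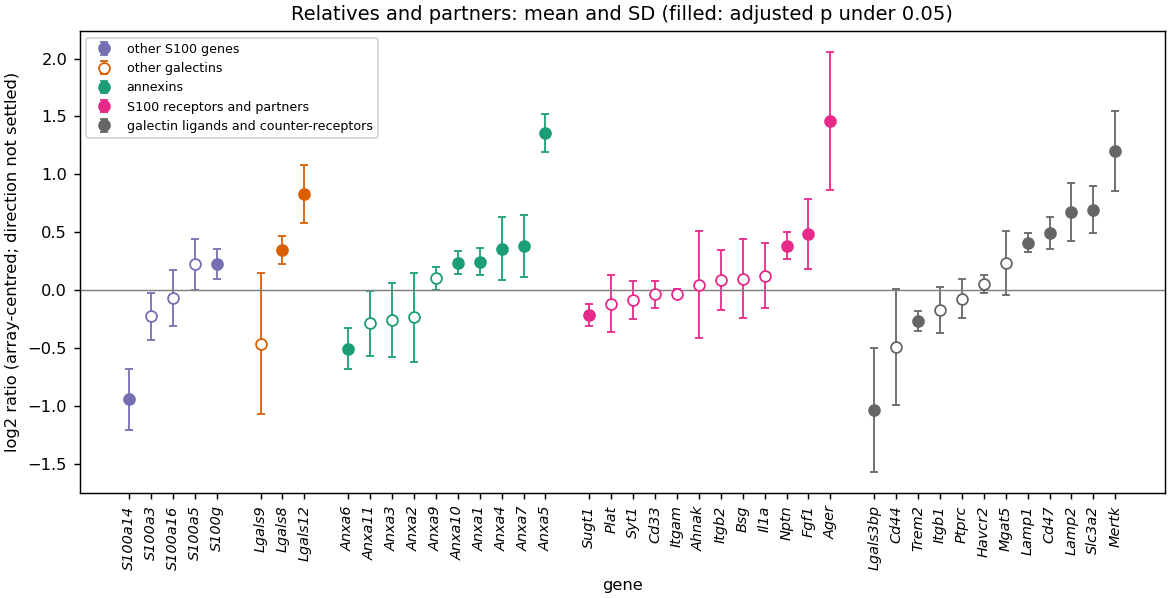
Mean log2 ratio and SD between mice (bars) of measured relatives and partners, grouped by list (colours), filled where the adjusted p is under 0.05. S100a14 (−0.95) and Lgals3bp (−1.04) lie lowest, and Ager (1.46), Anxa5 (1.36) and Mertk (1.2006) lie highest.

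The S100 cluster on chromosome 3 also holds the genes of the cornified envelope. RefSeq's GRCm38.p6 annotation lists 70 protein-coding genes between the outermost S100 genes, 15 of them S100 genes, and 25 of the 70 were measured here. Of the 10 measured S100 genes in it, 5 were called below 0, 0 above 0 and 5 did not pass, with a median of −0.302. Of 15 measured genes that are not S100 genes, 4 were called below 0, 0 above 0 and 11 did not pass, with a median of −0.604. The shares over all genes were 23.9% below 0 and 25.8% above. With the pool treated as 1 control animal, a count added after the values were seen, 0 of the 10 and 1 of the 15, Sprr1a, were called. Sprr1a, a precursor of the cornified envelope, lay farthest from 0 in the cluster, at −4.31 ± 0.25 (SD, n = 5), and Ivl, involucrin, stood at −1.0035 ± 0.29 on 4 arrays. S100a5, with a mean of 0.22, lies between S100a4 at −2.76 and S100a6 at −1.32, and its 5 values overlapped with those of neither. S100a16 at −0.07 lies beside S100a14 at −0.95, again without overlap between mice.

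**Figure D4:**
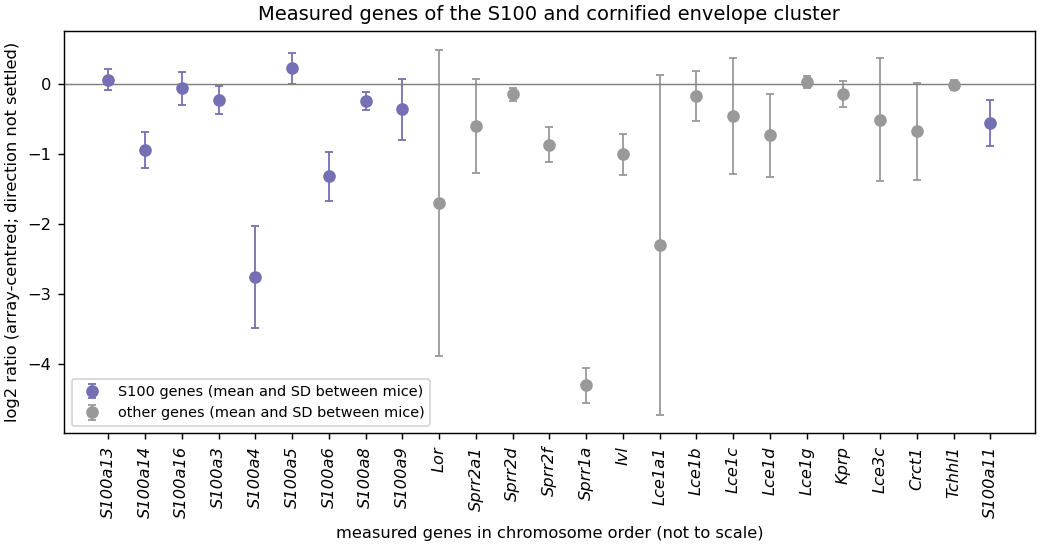
Mean log2 ratio and SD between mice (bars) of the 25 measured genes of the cluster, in chromosome order and not to scale, with S100 genes in purple and other genes in grey. Sprr1a (−4.31) lies lowest, and S100a4 (−2.76) stands between S100a3 (−0.23) and S100a5 (0.22).

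For the 4 members farthest from 0, the genes with the most similar values on all 5 arrays were sought. Similarity was the root mean square difference of log2 ratios, over 7436 other named genes measured on all arrays. This measure weighs the level of the ratios as well as their pattern over the mice. C1qb stood at −2.565 in mouse 3, for example, where S100a4 stood at −1.485. Nearest to S100a4 were C1qb (0.62), the acute-phase inhibitor Serpina3n (0.63), the mitochondrial lipid enzyme Tamm41 (0.69), the macrophage chemokine Ccl3 (0.696) and Retnla (0.76), a product of alternatively activated macrophages. Nearest to Lgals1 were the fractalkine receptor Cx3cr1 (0.05), Tamm41 (0.21), the inhibitory receptor Lilrb4a (0.25), the chemokine Ccl12 (0.29) and Ifitm3 (0.30), a restriction factor for viruses. Nearest to S100a6 were the membrane protein Emp3 (0.16), the complex III subunit Uqcrh (0.18), Mroh4 (0.18), the ribosomal protein Rps16 (0.19) and the proteasome subunit Psmb6 (0.197). Nearest to S100a11 were the actin crosslinker Actn4 (0.12), the retrieval receptor Kdelr2 (0.17), the oligosaccharyltransferase subunit Dad1 (0.17), the ATP synthase subunit Atp5l (0.18) and the trafficking protein Trappc2l (0.19).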

How the data were processed

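Amplified lung RNA of 5 bleomycin-treated mice was measured on 2-colour arrays, each against 1 control pool. The authors deposited a log ratio for each feature of each array, taken here as log2. The sources used here give neither scale, normalization method nor direction, and the deposited medians, 0.011 to 0.026, show that the authors' values were already centred near 0. Without scanner intensities, signal over background is unknown, and precision is limited by having 5 arrays.

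Each array was centred on its median, features with values on at least 4 of 5 arrays were kept (10702 of 17280), and features of 1 symbol were averaged. Symbols came from the platform's annotation, 1 symbol for 14722 features, several for 1 and none for 2557, and the RefSeq gene identifiers changed 0 of them. Each mean ratio was compared with 0 in limma 3.58.1 (R 4.3.3, intercept-only model, empirical Bayes, two-sided, Benjamini-Hochberg over all 10081, threshold 0.05). The procedure was tested on simulated data. The simulated noise was independent between arrays, so it held no error from the shared pool. The labels do not say whether mice were handled separately, so p-values measure the spread between these arrays. Neighbouring members were compared by exact sign-flip tests.

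Members and gene lists were chosen with earlier results of these data known. Every member was named. Measured relatives, receptors, partners and ligands could be named, with at most 3 genes of the remaining lists, and the 5 most similar genes of the 4 members farthest from 0. Alternatives covered centring, the filter on missing values, averaging of features, symbols, moderation, a minimum difference of 1.2-fold, the pool as 1 control animal and each mouse left out.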

Additional observations from a re-analysis of the deposited data

Results flagged for a closer look

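Among 87 named genes, 4 had 1 mouse far from the others. For genes on 5 arrays the gap to its nearest neighbour had to exceed 0.71 of the whole range, and for genes on 4 arrays a stricter limit was used. Chance gives about 1 such gene in 20, so 4 of 87 is no more than chance gives. S100a4 stood at −1.49 in mouse 3, with a gap of 0.791 of its range. S100a3 stood at 0.124 in mouse 1 (0.798), the collagen Col3a1 at −1.02 in mouse 2 (0.936) and Serpina3n, among the genes most similar to S100a4, at −3.37 in mouse 1 (0.74). The mean of S100a4 was −3.08 without mouse 3.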

How the results depend on the processing

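All 7 member means kept their side of 0 under every alternative run. Of 105 comparisons of a member mean with its alternative, 98 also kept their side of the threshold. Each member had 1 feature on all 5 arrays, so the filter on missing values, averaging of features and symbols could not move its mean. The plain test, the 1.2-fold rule and the pool setting changed only the p-value. Only omitting the centring or leaving out a mouse could move a member mean. Treating the pool as 1 control animal ended the calls of S100a4 (−2.76, adjusted p = 0.0519), S100a6 (−1.32, adjusted p = 0.0583), S100a11 (−0.56, adjusted p = 0.324) and S100a8 (−0.24, adjusted p = 0.417), which left 1 of 7 members below 0 and 213 genes below and 300 above 0 overall. Requiring more than 1.2-fold ended the calls of S100a8 (adjusted p = 1.0) and S100a11 (adjusted p = 0.0942) and left 3 members, with 811 genes below and 1036 above 0. Both settings demand more of a gene by construction. With each mouse left out, members called below 0 numbered 5 to 6, and S100a9 ran from −0.52 to −0.26 and passed without mouse 3. Means that changed sign had not passed before the change: S100a16 (from −0.14 to 0.022 over the mice left out, positive without mouse 2), Bsg (from −0.0095, without mouse 5, to 0.22), Itgb2 (from −0.0077, without mouse 4, to 0.17) and Ahnak (from −0.044, without mouse 4, to 0.24, also below 0 at −0.038 without mouse 3, and −0.701, past the threshold at adjusted p = 0.00312, with features on all 5 arrays, where 1 of its 2 features remained). No paired analysis was possible because the mice form 1 group. The base of the logarithm, the direction of the ratio, dye bias without a dye swap and the spread between control mice were not tested. Without scanner intensities, signal over background is unknown.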

Other observations

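Of 17 other measured genes of EF-hand calcium-binding proteins, 8 were called below 0, 5 above 0 and 4 did not pass, with a median of −0.18. Over all genes, 23.9% were called below 0 and 25.8% above. With the pool treated as 1 control animal, 2 of the 17 were called below 0 and 0 above. Aif1, known as IBA1 and a marker of macrophages, stood at −2.36 ± 0.34 (SD, n = 5; adjusted p = 2.88e-05 by limma). Calm3, 1 of the calmodulin genes, stood at −1.56 ± 0.08 (adjusted p = 8.87e-06 by limma), and all 5 mice lay between −1.63 and −1.47. On the other side lay Rcn2, reticulocalbin 2 of the endoplasmic reticulum, at 1.05 ± 0.76 (adjusted p = 0.0138 by limma), with mice 4 and 5 at 0.13 and 0.37 and mice 1 to 3 between 1.299 and 1.84. The call of Rcn2 was lost with a plain one-sample test per gene (adjusted p = 0.0764), when more than 1.2-fold was required (adjusted p = 0.0541), without mouse 3 (0.91, adjusted p = 0.0509) and with the pool treated as 1 control animal (adjusted p = 0.397).

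The profiles of Lgals1 and Cx3cr1, the fractalkine receptor of monocytes, were nearly the same. Cx3cr1 stood at −2.48, −1.93, −1.965, −2.12 and −2.43 in mice 1 to 5, and the genes differed by 0.02 to 0.08 on each array. This comparison was picked after its values were seen. The features are numbered 14595 and 14601 on the platform. Of the 5 features numbered between them, 4 had values on at least 4 arrays, and the means of the deposited values ran from −0.53 to 0.04.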
